A study of Macaca fascicularis with 2 samples.

Results

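The genes of the cell cycle and of DNA replication were taken by symbol from a list of 44, of which 40 were among the 29324 genes measured. They comprise 19 replication genes, 19 mitosis genes, and *STMN1* and *HMGB2*, which were kept apart because resting lymphocytes also carry their RNA. No row bore the symbol *DUT*, *BUB1B*, *NUSAP1* or *TUBB*, so these 4 were left aside. The cells were double positive (DP) T cells, which bear both CD4 and CD8, from the blood of 1 untreated cynomolgus monkey aged 10 years. CD4+ cells were drawn from fresh blood mononuclear cells with magnetic beads, CD8+ cells were then drawn from these, and 1 gene library and 1 library of CD4 and CD8 antibody tags were made from the same droplets. All 8953 barcodes carried UMIs (unique molecular identifiers, each marking 1 captured RNA molecule) in both libraries. With 1 animal and 1 preparation the data hold no replicates and allow no test between animals, and every interval below is a 95% interval for counting error only.

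A resting lymphocyte that enters the cell cycle loads the MCM helicase onto its origins and switches on E2F target genes that make nucleotides and build the replication fork. Later it switches on the cyclins, kinases, spindle motors and kinetochore proteins of mitosis. Most T cells in blood are out of the cycle, and dividing cells are found mainly in lymphoid tissue or among recently activated effector cells. Because the replication set is made before the mitosis set, cells in different phases carry different proportions of them.

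The filter of 200 to 4000 genes and at most 20% mitochondrial UMIs left 8830 cells with 31677119 gene UMIs, a median of 3145 UMIs and 1127 genes a cell. Tag thresholds placed 6354 cells in the CD4hiCD8lo gate, 1942 in CD4hiCD8hi, 417 in CD4loCD8hi and 117 in CD4loCD8lo. A cell was called positive for *GZMB* (granzyme B, a cytotoxic protease), *FOXP3* (the regulatory T cell factor), *CCR7* (a lymph node homing receptor of naive cells) or *CXCR5* (a follicle homing receptor) when it held at least 1 UMI of the gene. The T cell markers *CD3D* and *CD3E* had a UMI in 90.9% and 96.3% of the cells outside the programmes described next. The B cell list also had UMIs among them, and 111 cells held at least 3 of its 6 markers and no more than 1 UMI in all of the CD3 genes and *TRAC*. These B control cells show how much free RNA a droplet could carry, and *GZMB* was found in 3 of them (2.70%, interval 0.561 to 7.70%).

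The 19 replication genes together gave 5127 UMIs, or 161.9 CPM (UMIs per 1000000 gene UMIs of the group), the 19 mitosis genes gave 2192 UMIs (69.2 CPM), and *STMN1* and *HMGB2* gave 11136 (351.5 CPM). A score was taken for each cell as summed UMIs per 10000 gene UMIs. The replication score was 0 in 67.9% of cells and reached 10.3 at the 99th percentile and 72.8 in the highest cell. The mitosis score was 0 in 88.0% of cells, 6.11 at the 99th percentile and 88.3 at most. Nearly all cells thus held none or 1 of the genes, and a small number held many of them at once.

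Counting the different genes detected in a cell separated these few cells. Of the 19 replication genes, 5993 cells held none, 2274 held 1, 426 held 2 and 74 held 3. Beyond that, 63 cells held 4 to 18 different replication genes, with 2 to 12 cells at each number. Of the mitosis genes, 7771 cells held none, 902 held 1 and 108 held 2, while 49 cells held 3 or more and 1 cell held 18. A cell was said to carry the replication programme with at least 4 different replication genes and the mitosis programme with at least 3 different mitosis genes. This is a range cut from a count, not a cell type.

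By that rule 85 of 8830 cells carried a programme (0.963%, interval 0.770 to 1.19%). The replication programme was found in 63 cells (0.713%, 0.549 to 0.912%) and the mitosis programme in 49 (0.555%, 0.411 to 0.733%). Both were present in 27 cells, replication alone in 36 and mitosis alone in 22. The cut ran through the tail. There were 11 cells exactly at the replication minimum and 69 with 1 gene fewer, counting those without a mitosis programme, and 12 cells at the mitosis minimum and 100 with 1 fewer, counting those without a replication programme. Well inside the cut, with at least 8 replication or 6 mitosis genes, there were 46 cells.

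**Figure D1:**
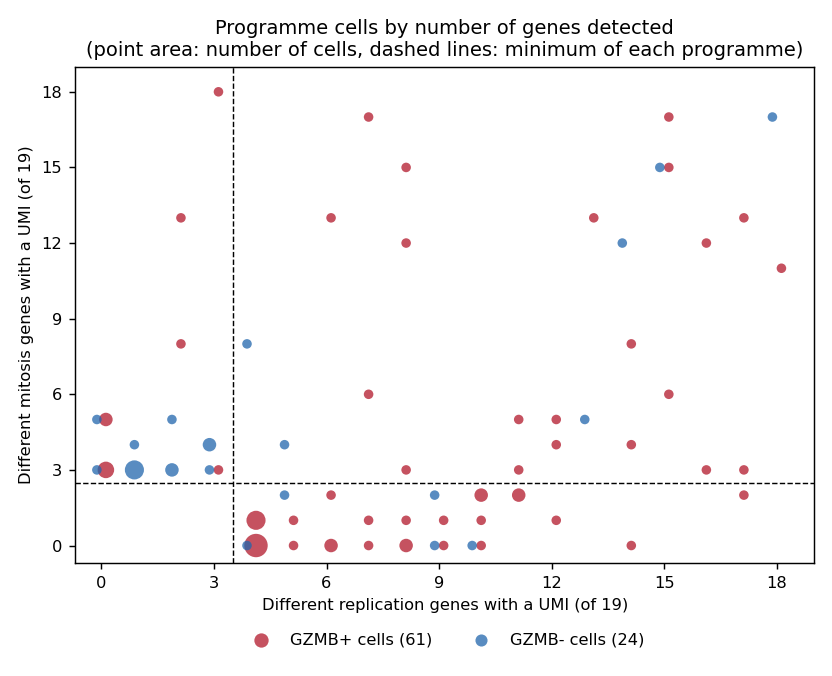
Each of the 85 programme cells by the number of different replication genes (x axis) and mitosis genes (y axis) with a UMI, with point area for the number of cells and colour for *GZMB* status. The 61 GZMB+ cells (red) fill most of the field of many replication genes, and cells with both programmes lie right of and above the dashed minima.

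Programme cells were deep. Their median was 7219 UMIs and 2374 genes, against 3135 UMIs and 1124 genes in the other 8745 cells, while the median mitochondrial share was 3.29% and 3.63%. The CD8 tag had a median of 752 UMIs in programme cells and 296 in the others, and the CD4 tag 424 and 418. A deeper cell has more chances to show a gene, so every cell with at least 2200 UMIs was thinned to that number, which left out 754 shallower cells. At this equal depth 49 of 8076 cells carried a programme (0.607%, 0.449 to 0.801%).

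The 5 T cell markers summed to 3415 CPM in programme cells and 3682 CPM in the others, and 83 of the 85 held a UMI of at least 1 of *CD3D*, *CD3E*, *CD3G* and *TRAC*. The B cell list was at 346.6 CPM in programme cells and 185.0 CPM in the others, and it was concentrated in those with mitosis alone, at 1124 CPM. At least 3 B cell markers were found in 5 programme cells, whose median depth was 17885 UMIs, and all 5 also held a UMI of *CD3D*, *CD3E*, *CD3G* or *TRAC* and at least 3 plasma cell markers. The plasma cell list was at 829.9 CPM in programme cells and 46.2 CPM in the others, and at 1617 CPM in those with mitosis alone. Of its 6 markers, *JCHAIN* (the joining chain of secreted antibody) gave 480 UMIs in 5 programme cells and 599 UMIs in 112 of the other cells. *MZB1* was at 70.4 and 5.56 CPM, *DERL3* at 40.04 and 4.59 CPM, *PRDM1* at 37.3 and 16.3 CPM and *TNFRSF17* at 19.3 and 0.388 CPM, and *SDC1* was at 0 in every cell. The part of these cells in the results was not tested beyond the values for T cells only given below. The monocyte list was at 19.3 CPM against 83.6 CPM in the other cells, with *LYZ*, *CSF1R* and *MNDA* at 0. The NK cell list was at 146.4 CPM against 83.4 CPM. Of its markers, *KLRF1* was at 42.8 against 17.5 CPM, *FCER1G* at 42.8 against 24.5 CPM and *TYROBP* at 59.4 against 39.6 CPM. *NCR1* was at 1.38 against 1.49 CPM and *NCAM1* at 0 against 0.420 CPM. With replication alone, 1 cell held 22 of the 31 *FCER1G* UMIs and 1 cell held 33 of the 43 *TYROBP* UMIs of programme cells. The erythroid and platelet lists were at 0. Of the thymocyte list, *RAG1*, *RAG2*, *PTCRA* and *DNTT* were at 0 and *CD1A* and *CD1B* had 1 UMI each. Without cells holding 3 or more B or monocyte markers, and without cells lacking the 4 T cell receptor genes, 78 programme cells were left. The automatic threshold of the doublet caller Scrublet called no cell, so no cell was removed as a doublet. Of the 530 cells in the 6% with the highest doublet scores, 4 were programme cells.

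Within the T cell lists, programme cells had 4446 CPM of the cytotoxic markers against 1522 CPM in the other cells, and 350.7 CPM of the naive markers against 1833 CPM. *PDCD1*, the PD-1 receptor of activated T cells, had a UMI in 38 of the 85 and was at 127.0 against 33.1 CPM. Of the other follicular helper markers, *CXCR5* was at 42.8 and 16.8 CPM, *ICOS* at 20.7 and 15.8 CPM and *CD40LG* at 45.6 and 66.6 CPM. The activated T cell list was at 1781 and 1063 CPM, and at 4379 CPM in cells with mitosis alone. Of its markers, *CD38* was at 135.3 and 120.7 CPM, *HLA-DRA* at 396.3 and 185.7 CPM and *CD74* at 1203 and 730.7 CPM. The regulatory T cell markers summed to 70.4 and 67.7 CPM, but went both ways. *FOXP3* was at 6.90 (2.24 to 16.1) and 23.1 CPM and *IKZF2* at 11.05 and 16.8 CPM. *CTLA4* was at 30.4 and 18.8 CPM and *IL2RA* at 22.1 and 9.05 CPM. Of the 16 *IL2RA* UMIs in programme cells, 12 lay in 3 cells with mitosis alone.

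The following values in programme cells describe genes that were used to choose those cells. The 6 MCM genes encode the ring-shaped helicase that opens DNA at origins. *MCM2* had 89 UMIs in 66 cells and 60.7% of its UMIs lay in programme cells. *MCM3* (255 UMIs), *MCM4* (230) and *MCM5* (329) had 43.9%, 42.6% and 41.3% there. *MCM6* (311 UMIs in 264 cells) and *MCM7* (642 UMIs in 533 cells) had 23.8% and 23.4%. Most UMIs of the last pair therefore came from cells without a programme, largely as single molecules, since the 492 UMIs of *MCM7* outside programme cells were spread over 475 cells.

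The licensing factors that load this helicase were much rarer outside programme cells. *CDC6* had 31 of its 35 UMIs in programme cells (88.6%) and *CDT1* had 12 of 14 (85.7%). *CDC45*, which joins the MCM ring to form the active helicase, had 140 UMIs in 129 cells, of which 21.4% were in programme cells. *GINS2*, a subunit of the complex that joins with it, had 57.7% of 78 UMIs there. At the fork itself, *PCNA*, the clamp that holds the polymerases, had 1038 UMIs in 827 cells, 19.2% of them in programme cells, where its level was 274.8 CPM against 27.1 CPM elsewhere. *FEN1*, the nuclease that trims Okazaki fragments, had 25 of 50 UMIs there, and *CLSPN* (claspin, a checkpoint mediator) had 28 of 37.

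Among the enzymes that supply nucleotides, the subunits of ribonucleotide reductase differed widely in this share. *RRM2*, the small subunit that is made in S phase, had 248 UMIs in 43 cells, with 236 UMIs (95.2%) in programme cells and up to 40 in a single cell. *RRM1*, the large subunit, had 1336 UMIs in 1170 cells and only 102 UMIs (7.63%) in programme cells, the lowest share of the 40 genes. *TYMS* (thymidylate synthase) had 144 of 154 UMIs in programme cells (93.5%), and all 38 UMIs of *TK1* (thymidine kinase) were there. With the other cells set to the floor of 3 UMIs, *TK1* was 541-fold higher in programme cells, a log2 ratio of 9.08 (7.42 to 11.4). *UHRF1*, which maintains DNA methylation behind the fork, had 58 of 70 UMIs there, and *E2F1*, the transcription factor upstream of the set, had 24 of 33.

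Of the mitosis genes, *UBE2C*, the ubiquitin enzyme of the anaphase-promoting complex, had 88 of 89 UMIs in programme cells, in 17 cells and with up to 28 in a single cell. *CCNA2* (cyclin A2) had 73 of 104 UMIs there and *CCNB2* (cyclin B2) 52 of 64. *CCNB1* (cyclin B1) went against this, with 12 of 106 UMIs in programme cells (11.3%) and the other 94 spread over 93 cells. *CDK1*, the kinase these cyclins activate, had 71 of 113 UMIs (62.8%). *CDC20*, the activator of the anaphase-promoting complex, had 35 of 53, and *PLK1* (polo-like kinase 1) had 23 of 61.

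The chromosome and spindle genes were likewise uneven. *MKI67*, the proliferation antigen on mitotic chromosomes, had 195 UMIs in 100 cells, 63.1% of them in 42 programme cells, so it was not detected in every programme cell. *TOP2A* (topoisomerase II) had 48.4% of 126 UMIs in programme cells. *AURKB* had 26 of 32 UMIs and *BIRC5* (survivin), its partner in the chromosomal passenger complex, 75 of 217 (34.6%). *AURKA*, the spindle pole kinase, had 6 of 23, and its activator *TPX2* 31 of 85. *BUB1*, of the spindle checkpoint, had 12 of 15. The kinesin motors *KIF11* and *KIF23* had 27 of 39 and 22 of 33. Of the kinetochore genes, *CENPE* had 20 of 71 UMIs (28.2%), *CENPF* 78 of 422 (18.5%) and *CENPM* 149 of 344 (43.3%) in programme cells.

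By list, programme cells held 31.1% of all replication UMIs, 44.9% of all mitosis UMIs and 15.8% of those of *STMN1* and *HMGB2*, and 20 of the 40 genes had more than 50% of their UMIs there. *STMN1* (stathmin, which destabilises microtubules) had UMIs in 3455 cells and was at 1443 CPM in programme cells and 158.9 CPM in the others. *HMGB2*, a chromatin protein, had UMIs in 3328 cells and was at 981.8 and 144.2 CPM. UMI counts were not divided by gene length, so the levels of different genes were not ranked.

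**Figure D2:**
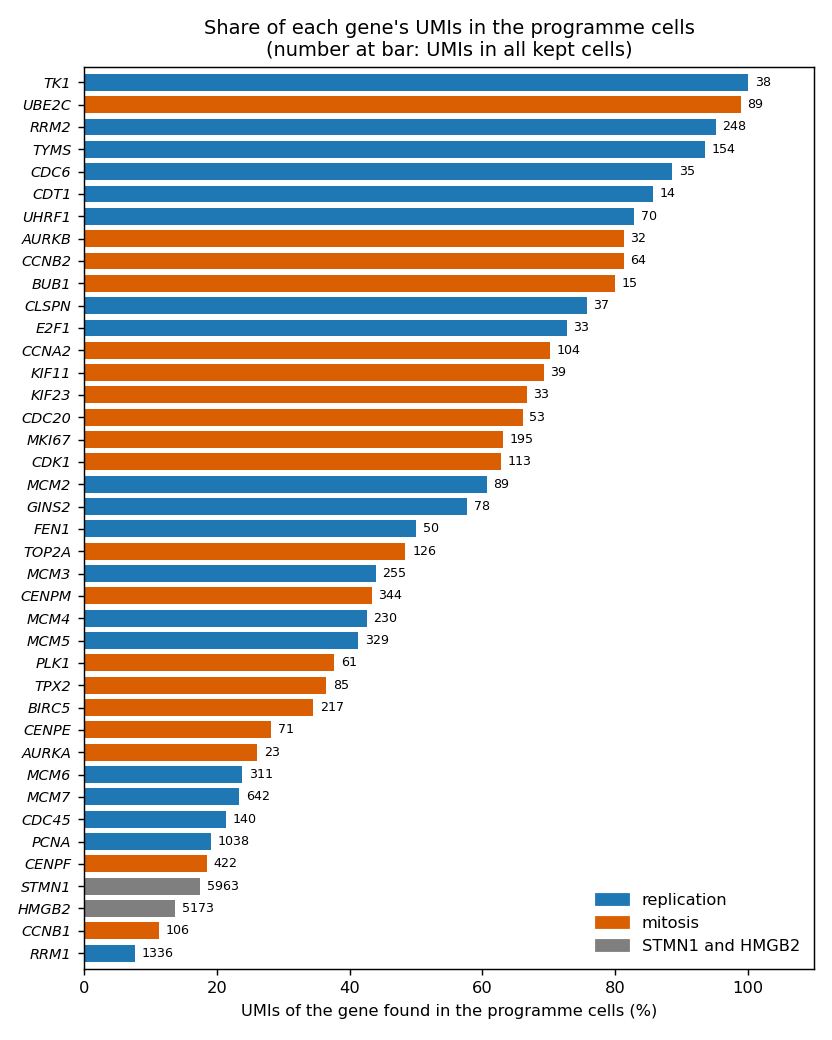
Share of each gene's UMIs (%, x axis) found in the 85 programme cells, with bars from 0 coloured by list and the gene's UMIs over all kept cells beside each bar. *TK1*, *UBE2C*, *RRM2* and *TYMS* lie above 90%, and *RRM1* and *CCNB1* lie lowest, at 7.63% and 11.3%.

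Genes of the same pathways that had no part in choosing the cells were compared between programme cells and all others. Over the 10178 genes with at least 50 UMIs, 12.7% were at least 2-fold higher in programme cells and 9.75% at least 2-fold lower, with a group at 0 UMIs set to the floor of 3 UMIs here and in all such counts. Of 27 other replication genes that passed this minimum, 25 were at least 2-fold higher and none at least 2-fold lower. *CHAF1A*, a histone chaperone of the fork, was at 40.04 against 1.23 CPM, and *LIG1*, the ligase of Okazaki fragments, at 80.1 against 9.43 CPM. Of 27 other mitosis genes that passed, 24 were at least 2-fold higher. *CKS2*, a cyclin-dependent kinase subunit, was at 240.3 against 33.7 CPM and *CDCA8*, of the chromosomal passenger complex, at 46.9 against 1.26 CPM. The exceptions were *CENPK*, *TACC3* and *CDC25B*, the last at 339.7 against 352.4 CPM.

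Genes of G1, the phase before replication, were mixed. Of 21 that passed the minimum, 9 were at least 2-fold higher and none at least 2-fold lower. *E2F2* was at 27.6 CPM in programme cells and 1.23 CPM in the others, *CCNE1* (cyclin E1) at 11.05 and 1.39 CPM, and *CDK4*, the kinase of early G1, at 93.9 and 36.8 CPM. Inhibitors were found on both sides, with *CDKN2B* at 85.6 and 7.92 CPM and *CDKN1A* at 74.6 and 21.6 CPM, while *CDKN1B* was at 78.7 and 148.8 CPM. *CCND3*, the D-type cyclin of T cells, was at 227.8 and 234.5 CPM. *CCND1* had no UMI in programme cells and 123 UMIs (3.97 CPM) in the others, a difference that was not detectable at this depth.

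Among genes outside the 40 detected in 10% or more of whichever cells had the higher level, those with the largest ratios towards programme cells were the histone genes *H3C15* (1801 against 44 UMIs, in 17 programme cells) and *H1-5* (85 against 25), *PKMYT1*, a kinase that restrains CDK1 (60 against 4), and ENSMFAG00000000382 and ENSMFAG00000039976, which have no symbol. Those with the largest ratios away were *CD1A* (1 against 1233 UMIs), *TMEM25* (2 against 1042), *DNTT* (0 against 1249), *PLEKHG1* (3 against 1095) and *PDE6H* (9 against 3150).

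The tag gates were compared to ask whether the cells with low and high coreceptor levels differed in cycling. A programme was carried by 26 of 6354 CD4hiCD8lo cells (0.409%, 0.267 to 0.599%), 47 of 1942 CD4hiCD8hi cells (2.42%, 1.78 to 3.21%) and 9 of 417 CD4loCD8hi cells (2.16%, 0.992 to 4.06%). The interval of CD4hiCD8lo overlaps with neither of the others, while those of CD4hiCD8hi and CD4loCD8hi overlap. At equal depth the shares were 0.227% (0.121 to 0.388%), 1.56% (1.05 to 2.23%) and 1.5% (0.552 to 3.24%), in the same order. The median depth of the gates was 2968.5, 3982 and 3634 UMIs. In the CD4loCD8lo gate 3 of 117 cells carried a programme (2.56%, 0.532 to 7.31%), all of them without a *GZMB* UMI, and at equal depth 1 of 85 did. With T cells only, and without cells holding 3 or more plasma cell markers, the shares were 0.367%, 2.42% and 2.27% in the first 3 gates and 0 of 38 in the last.

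**Figure D3:**
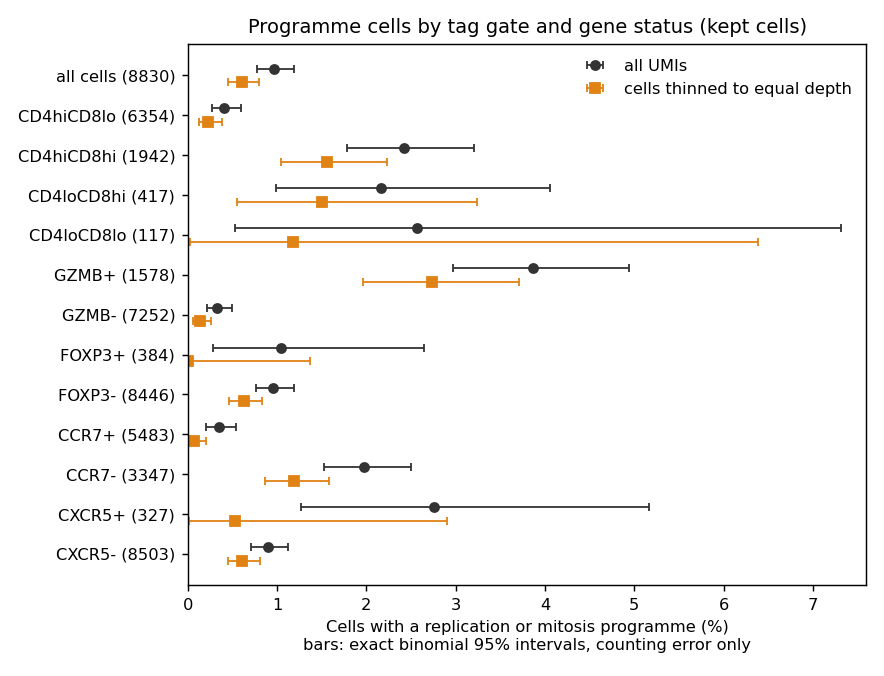
Percentage of cells with a replication or mitosis programme (x axis) by tag gate and gene status, with the number of kept cells in parentheses, before (circles) and after thinning to equal depth (squares), and exact binomial 95% intervals as bars. CD4hiCD8hi cells at 2.42% and GZMB+ cells at 3.87% lie above CD4hiCD8lo cells at 0.409% and GZMB- cells at 0.331%.

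The 99th percentile of the replication score was 8.35 in CD4hiCD8lo, 24.0 in CD4hiCD8hi and 19.5 in CD4loCD8hi cells, and its median was 0 in each. Summed over the list, replication genes were at 126.1 CPM in CD4hiCD8lo, 224.0 in CD4hiCD8hi and 215.9 in CD4loCD8hi cells. The log2 ratio to CD4hiCD8lo was 0.83 (0.75 to 0.91) for CD4hiCD8hi and 0.78 (0.61 to 0.94) for CD4loCD8hi. Mitosis genes were at 47.6, 109.0 and 80.5 CPM, with log2 ratios of 1.20 (1.07 to 1.32) and 0.76 (0.49 to 1.02). Between CD4loCD8hi and CD4hiCD8hi the log2 ratio was -0.05 (-0.22 to 0.11) for replication genes, an interval that includes 0, and -0.44 (-0.71 to -0.17) for mitosis genes. With tag thresholds lowered 1.5 times the mitosis ratio changed sign, to 0.23 (-0.12 to 0.57). Without the 85 programme cells the ratios of CD4hiCD8hi to CD4hiCD8lo were 0.24 (0.14 to 0.35) for replication and 0.33 (0.15 to 0.51) for mitosis genes. Those of CD4loCD8hi to CD4hiCD8lo were then 0.035 (-0.20 to 0.26) and 0.017 (-0.40 to 0.41). Most of the differences to CD4hiCD8lo thus lay in the programme cells. Those cells were chosen by these same genes, so a smaller ratio without them is in part built in. These comparisons share gates and so are not independent of each other.

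At least 2-fold higher in CD4hiCD8hi than in CD4hiCD8lo cells were 6 of the 13 replication genes and 8 of the 13 mitosis genes that had at least 50 UMIs, where 4.22% of all 10025 genes were. The largest of them was *UBE2C*, at 6.83 against 0.732 CPM, followed by *RRM2* at 16.9 against 2.34 CPM. *TYMS* was at 9.37 and 2.05 CPM and *MKI67* at 12.1 and 2.93 CPM. *RRM1*, at 47.9 and 38.9 CPM, and *CENPF*, at 15.2 and 12.2 CPM, were close to even, and *STMN1* was at 191.3 and 191.9 CPM. For CD4loCD8hi over CD4hiCD8lo, 5 of 10 replication and 2 of 6 mitosis genes passed 2-fold against a background of 5.08%. *RRM2* was at 12.8 CPM there, *MCM5* at 21.3 against 6.83 CPM and *TOP2A* at 7.32 against 2.20 CPM. For CD4loCD8hi over CD4hiCD8hi, 1 of 8 mitosis genes was at least 2-fold lower, *BIRC5* at 4.27 against 10.0 CPM, where 3.69% of all genes were.

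Of the 4 genes, *GZMB* gave the widest difference between positive and negative cells. Of 1578 GZMB+ cells 61 carried a programme (3.87%, 2.97 to 4.94%), against 24 of 7252 GZMB- cells (0.331%, 0.212 to 0.492%). At equal depth, where status was also called on the thinned UMIs, the shares were 2.73% (1.96 to 3.70%) and 0.136% (0.0622 to 0.258%). GZMB+ cells were 17.9% of all cells and 71.8% of programme cells (61.0 to 81.0%). Cells with 1 *GZMB* UMI carried a programme in 3 of 113 cases and cells with 2 or more in 58 of 1465 (3.96%). *GZMB* RNA was found in 1.80% of the thinned B control cells and in 18.1% of all thinned cells, so most of this status was above the level of free RNA.

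The share of cells with a *GZMB* UMI differed between the programmes as called. A *GZMB* UMI was found in 31 of the 36 cells with replication alone (86.1%, 70.5 to 95.3%), in 21 of 27 with both programmes (77.8%, 57.7 to 91.4%) and in 9 of 22 with mitosis alone (40.9%, 20.7 to 63.6%), and the first and last intervals do not overlap. *GZMB* itself was at 4080, 1998 and 343.3 CPM in these 3 groups. Of the 5 programme cells with 3 or more B cell markers, 3 were among the 22 with mitosis alone. The cells with mitosis alone and no *GZMB* UMI each held 3 to 5 mitosis genes, close to the minimum of 3. Those with 8, 13 and 18 mitosis genes were GZMB+, and the other GZMB+ cells with mitosis alone held 3 to 5. The part of cells near the minimum, and of cells with B cell markers, in this order was not tested.

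In CD4hiCD8lo and CD4hiCD8hi the GZMB+ cells carried a programme more often, with intervals that do not overlap. They were 9.60% of CD4hiCD8lo, 35.6% of CD4hiCD8hi and 62.6% of CD4loCD8hi cells. Among GZMB+ cells the share was 2.62% (16 of 610, 1.51 to 4.22%), 5.2% (36 of 692, 3.67 to 7.13%) and 3.45% (9 of 261, 1.59 to 6.44%), with intervals that overlap. Among GZMB- cells it was 0.174% (10 of 5744, 0.0835 to 0.320%) in CD4hiCD8lo and 0.880% (11 of 1250, 0.440 to 1.57%) in CD4hiCD8hi. These 2 intervals do not overlap. It was 0 of 156 in CD4loCD8hi, where a limit of 3 cells for a count of 0 allows a share of up to 1.92%. In CD4loCD8hi the exact interval of the GZMB- cells, up to 2.34%, overlaps with that of the GZMB+ cells. In the CD4loCD8lo gate 0 of 15 GZMB+ and 3 of 102 GZMB- cells carried a programme. The shares by gate and *GZMB* status together were not taken at equal depth. CD4hiCD8hi cells were deeper than CD4hiCD8lo cells (median 3982 and 2968.5 UMIs), and the part of depth in these shares was not tested.

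The 99th percentile of the replication score was 36.9 in GZMB+ and 7.97 in GZMB- cells, and that of the mitosis score 23.8 and 4.91. Replication genes were at 313.3 CPM in GZMB+ and 120.5 CPM in GZMB- cells (log2 ratio 1.38, 1.30 to 1.46), and mitosis genes at 155.1 and 45.8 CPM (1.76, 1.64 to 1.88). Of the 14 replication and 14 mitosis genes with at least 50 UMIs, 11 and 10 were at least 2-fold higher, where 10.1% of all genes were. *UBE2C* was at 11.5 against 0.442 CPM, *CDK1* at 13.4 against 0.884 CPM, *UHRF1* at 7.66 against 0.723 CPM, *TYMS* at 16.1 against 1.81 CPM and *CCNA2* at 10.5 against 1.33 CPM. Smaller differences were seen for *PCNA* (62.2 and 24.8 CPM), *MCM7* (29.3 and 17.8 CPM) and *RRM1* (54.5 and 38.8 CPM). *CDC45* was at 5.16 and 4.22 CPM, a log2 ratio of 0.29 with an interval from -0.31 to 0.85 that includes 0.

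A difference was left when programme cells were taken out, but it was smaller and ran in both directions. Programme cells were chosen by the genes of the 2 lists, so a smaller difference without them is in part built in. In GZMB+ and GZMB- cells without a programme, replication genes were at 143.2 and 106.6 CPM (log2 ratio 0.43, 0.32 to 0.54) and mitosis genes at 52.7 and 35.5 CPM (0.57, 0.38 to 0.75). *CDK1* was at 4.72 against 0.488 CPM, from 30 UMIs in 30 GZMB+ cells and 12 UMIs in 11 GZMB- cells. *TPX2* was at 5.66 against 0.732 CPM and *CENPE* at 5.03 against 0.772 CPM, again with at most 2 UMIs in any cell. These 3 genes and *MKI67* (5.35 and 1.54 CPM) thus followed *GZMB* status in cells that held few other genes of the lists.

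Other members went the opposite way in the same cells. *CENPM* was at 2.67 CPM in GZMB+ and 7.24 CPM in GZMB- cells, *CDC45* at 1.57 and 4.07 CPM and *STMN1* at 107.8 and 172.1 CPM. *STMN1* was thus higher in GZMB+ cells over all cells (233.3 and 175.9 CPM) and lower once the 85 programme cells were left out. Of the 8 mitosis genes with at least 50 UMIs here, 4 were at least 2-fold higher (*CENPE*, *TPX2*, *MKI67* and *TOP2A*), and of 8 replication genes 1 was, *MCM5*, where 9.31% of all genes were.

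**Figure D4:**
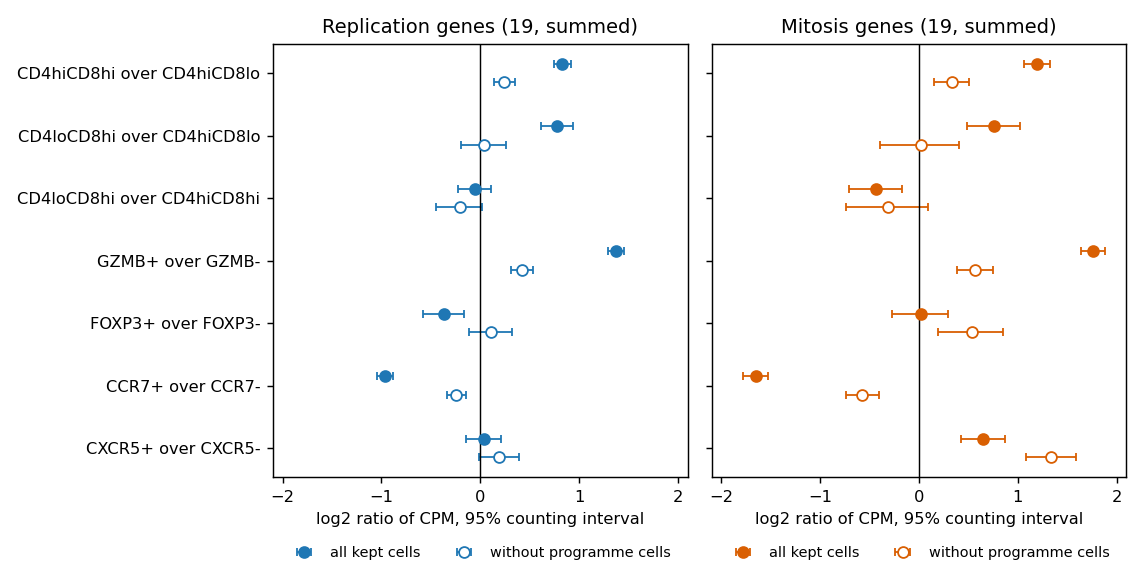
log2 ratio of summed CPM (x axis) for the replication genes (left) and mitosis genes (right) in each comparison of gates or status groups, over all kept cells (filled) and without the 85 programme cells (open), with 95% counting intervals. GZMB and CCR7 status shrink towards 0 without programme cells, which were chosen by these same genes, and the mitosis ratio of CXCR5 status grows from 0.65 to 1.34. *CENPM* gave 79 of the 151 mitosis UMIs in CXCR5+ cells without a programme, and 19 UMIs with T cells only.

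*CCR7* status ran the other way. Of 5483 CCR7+ cells 19 carried a programme (0.347%, 0.209 to 0.541%), against 66 of 3347 CCR7- cells (1.97%, 1.53 to 2.5%). At equal depth 3 of 4191 CCR7+ cells did (0.0716%, 0.0148 to 0.209%) and 1.18% of CCR7- cells (0.868 to 1.58%). A *CCR7* UMI was also found in 14.4% of 709 cells with at least 4 of 5 cytotoxic markers, which as effector cells should have little of it, and in 6.43% of them at equal depth. The share of programme cells with a *CCR7* UMI was 22.4% (14.0 to 32.7%) at their greater depth.

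Replication genes were at 118.7 CPM in CCR7+ and 230.9 CPM in CCR7- cells (log2 ratio -0.96, -1.04 to -0.88) and mitosis genes at 37.9 and 119.3 CPM (-1.65, -1.78 to -1.53). Of 14 genes each, 8 replication and 12 mitosis genes were at least 2-fold lower in CCR7+ cells, where 8.15% of all genes were. *RRM2* was at 0.975 against 18.8 CPM, *UBE2C* at 0.308 against 6.81 CPM and *MKI67* at 1.85 against 13.1 CPM. *RRM1* was at 38.5 against 48.1 CPM and *CDC45* at 4.51 against 4.27 CPM. Without programme cells *STMN1* was higher in CCR7+ cells, with a log2 ratio of 0.40 (0.31 to 0.48), and so was *CDC45*, with 1.12 (0.45 to 1.83).

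The 4 genes were also combined. Of 1300 cells positive for *GZMB* alone 52 carried a programme (4%, 3.0 to 5.21%), and of 4817 cells positive for *CCR7* alone 2 did (0.0415%, 0.00503 to 0.150%). Of 1800 cells positive for none of the 4 genes 11 did (0.611%, 0.305 to 1.09%). The low share of *CCR7* alone did not hold for every combination with *CCR7*. Cells positive for *GZMB* and *CCR7* only carried a programme in 7 of 226 cases (3.097%, 1.25 to 6.28%), an interval that overlaps with that of *GZMB* alone. Cells positive for *CCR7* and *CXCR5* only did in 5 of 153 cases (3.27%, 1.07 to 7.46%). The shares by combined status were not taken at equal depth.

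*FOXP3* status gave few programme cells, 4 of 384 (1.04%, 0.285 to 2.65%) against 81 of 8446 FOXP3- cells (0.959%, 0.762 to 1.19%). At equal depth none of 268 FOXP3+ cells carried one, where a limit of 3 cells allows a share of up to 1.12% (upper end of the exact interval 1.37%), against 0.628% of FOXP3- cells, so a difference was not detectable at this depth. Replication genes were at 126.9 CPM in FOXP3+ and 163.7 CPM in FOXP3- cells (log2 ratio -0.37, -0.58 to -0.16) and mitosis genes at 70.1 and 69.2 CPM (0.02, -0.27 to 0.30). The ratio for replication genes was 0.10 (-0.12 to 0.32) without programme cells and 0.24 (0.077 to 0.41) with every barcode kept. In the same settings that for mitosis genes was 0.53 (0.20 to 0.85) and 2.102 (1.96 to 2.24), so both depended on which cells were kept. The 2 FOXP3+ programme barcodes removed by the filter held 388 mitosis UMIs. At least 2-fold lower were 4 of 14 replication genes (*RRM2*, *MCM4*, *CDC45* and *MCM2*) and 3 of 14 mitosis genes (*CDK1*, *CCNA2* and *TPX2*), each from 1 to 3 UMIs in FOXP3+ cells, where 7.43% of all genes were, and at least 2-fold higher were 2 mitosis genes, where 1.84% were. These 2 were *PLK1*, from 6 UMIs in FOXP3+ cells, and *CENPM*, at 24.6 against 10.1 CPM.

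*CENPM*, a kinetochore protein, was higher outside programme cells with *FOXP3* and with *CXCR5*. There it had a UMI in 28 of 380 FOXP3+ cells (7.37%) and in 1.29% of FOXP3- cells, at 21.4 CPM (14.8 to 30.1) against 5.51 CPM (4.69 to 6.42). It had a UMI in 49 of 318 CXCR5+ cells (15.4%) and in 1.03% of CXCR5- cells, at 47.8 CPM (37.9 to 59.6) against 3.96 CPM (3.27 to 4.75). Cells with B markers carried it as well, since 30 of the 111 B control cells held a UMI (27.0%, 88.7 CPM). With T cells only, the CXCR5+ level was 18.9 CPM (11.4 to 29.5) against 3.41 CPM, from 19 UMIs in 16 of 210 cells, and the FOXP3+ level was 21.7 CPM (14.9 to 30.4) against 2.97 CPM. *MKI67* was also higher outside programme cells in FOXP3+ than in FOXP3- cells, at 5.198 (2.24 to 10.2) against 2.18 CPM (1.68 to 2.78), from 8 UMIs in 5 cells. No cell of these FOXP3+ or T cell CXCR5+ groups held more than 2 UMIs of *CENPM*. Over all kept cells of the CD4loCD8lo gate, programme cells included, *CENPM* was at 91.3 CPM, and 46.2% of this gate were CXCR5+.

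The difference by *CXCR5* status in the share of programme cells was not detectable at equal depth. A programme was carried by 9 of 327 CXCR5+ cells (2.75%, 1.27 to 5.16%) and 0.894% of CXCR5- cells (0.705 to 1.12%), but by 1 of 190 (0.526%) and 0.609% at equal depth. CXCR5+ cells had a median of 4667 UMIs and CXCR5- cells 3117. A *CXCR5* UMI was found in 2.96% of the cytotoxic control cells, whose median was 3805 UMIs, against 3.70% of all cells. At equal depth the shares were 1% (0.403 to 2.05%) and 2.35% (2.03 to 2.71%), so a single UMI was not a firm mark of this status. At least 2 UMIs of *CXCR5* were held by 113 cells, of which 8 carried a programme (7.08%, 3.11 to 13.5%). At least 3 B cell markers were held by 3 of the 9 CXCR5+ programme cells and by 2 of these 8. In T cells with under 3 plasma cell markers 6 of 216 CXCR5+ cells carried a programme (2.78%, 1.03 to 5.95%). Of the CXCR5- cells among them 72 of 8377 did (0.859%, 0.673 to 1.08%), and these intervals overlap. The CXCR5+ programme cells had a median of 11004 UMIs. The shares at 2 or more *CXCR5* UMIs and in these T cells were not taken at equal depth, so the part of depth was not tested.

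Replication genes were at 165.6 and 161.6 CPM in CXCR5+ and CXCR5- cells (log2 ratio 0.04, -0.14 to 0.21) and mitosis genes at 105.3 and 67.1 CPM (0.65, 0.43 to 0.87). The mitosis ratio was -0.48 without *CENPF*, *CENPM* and *BIRC5*, the 3 genes of the list with the most UMIs. Of these, *CENPM* was at 54.6 against 8.29 CPM, *CENPF* at 15.9 against 13.2 CPM and *BIRC5* at 6.83 against 6.85 CPM. The direction thus rested mainly on *CENPM*. With T cells only the mitosis ratio was 0.37 (0.048 to 0.68). Of 14 mitosis genes 2, *CENPM* and *CCNB2*, were at least 2-fold higher, where 5.63% of all genes were. At least 2-fold lower were 1 of 14 replication genes, *RRM2*, and 2 mitosis genes, *CCNA2* and *TPX2*, where 5.02% of all genes were. *CCNA2*, *UBE2C*, *CDC20* and *PLK1* had no UMI in CXCR5+ cells. *RRM2* had 1 UMI in CXCR5+ cells, at 0.569 against 8.26 CPM. *STMN1* was at 73.4 against 195.0 CPM, and without programme cells at 68.4 against 164.0 CPM.

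**Figure D5:**
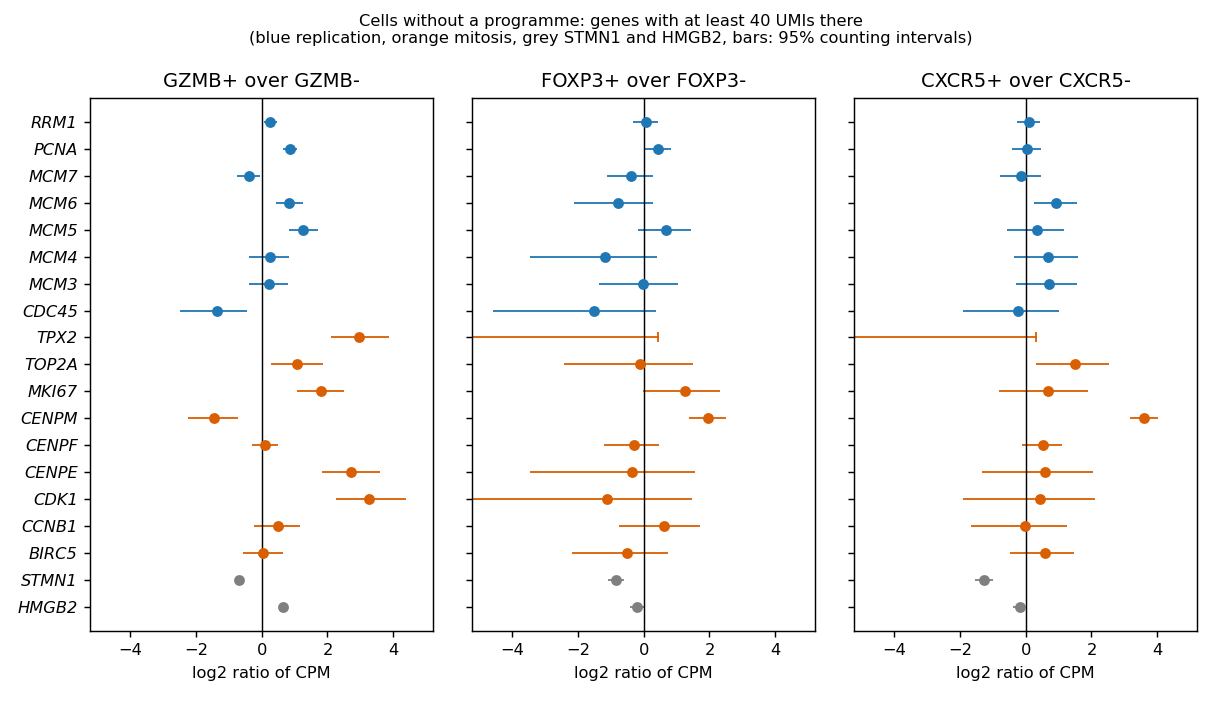
log2 ratio of CPM (x axis) for the 19 genes with at least 40 UMIs in cells without a programme, by *GZMB*, *FOXP3* and *CXCR5* status, with 95% counting intervals, of which only the upper end is drawn for *TPX2* where the positive group had no UMI and lines are clipped at the axis. *CDK1*, *TPX2* and *CENPE* lie right of 0 for *GZMB*, and *CENPM* lies left of 0 for *GZMB* and right of it for *FOXP3* and *CXCR5*.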

How the data were processed

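One 5′ single-cell gene library and 1 library of CD4 and CD8 antibody tags were measured in the same cells of 1 animal. The deposited files hold raw UMI counts per barcode, which the authors made against the Macaca fascicularis genome, and the submitters' processing notes name Cell Ranger 3.1.0, STAR 2.5.1b and Seurat 3.1.3. The members and all lists were chosen with earlier results of these data known. The study's limits were applied, which keep barcodes of 200 to 4000 genes whose share of mitochondrial UMIs (13 genes) does not pass 20%, and 123 of 8953 were removed. This left more cells than the study states, for a reason not known from the sources used here. The shares are thus over another set of cells than the study's. Gates came from a 2-component mixture on log10 tag UMIs, with thresholds of 146 (CD4) and 503 (CD8) UMIs. All members are described, pathway lists are given by counts with examples, and 5 other genes are named in each direction. Genes needed 50 UMIs over both groups to be counted, and a call was a 2-fold difference. Intervals were exact Poisson, binomial (Clopper-Pearson) or conditional binomial ones. UMIs of 1 preparation share its errors, so the intervals hold counting error only. Depth was compared by thinning cells to 2200 UMIs, with seed 1. Alternatives covered the filters, gene minima, thresholds, status, depth and cells taken. Python 3.11.15, numpy 2.4.6, scipy 1.17.1, scikit-learn 1.9.0, scanpy 1.11.5 and matplotlib 3.10.9 were used. No genome was used here, so no coordinates or sequences are given. Of the pathway lists, *POLA2*, *POLE*, *PRIM1*, *RPA3*, *CHAF1B*, *CCND2*, *E2F5*, *CDKN1C* and *CDKN2A* were not among the symbols.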

Additional observations from a re-analysis of the deposited data

Results flagged for a closer look

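The barcodes removed by the filter were outside every comparison, and 6 of these 123 carried a programme (4.88%, 1.81 to 10.3%), against 0.963% of the kept cells. Of the 6, 5 were among the 7 barcodes with more than 4000 genes and 1 was among the 79 with over 20% mitochondrial UMIs. They held 4174 to 35498 gene UMIs, and 450 of the 2649 mitosis UMIs and 273 of the 5421 replication UMIs of all barcodes. At least 3 B cell markers were found in 2 of them, and 3 met the rule for T cells only. By status 3 were GZMB+ and 2 were FOXP3+, and the 2 FOXP3+ barcodes held 388 mitosis UMIs.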

How the results depend on the processing

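Of 156 values recomputed, 78 stayed within the 95% counting interval of the reported value, 74 left it, and 4 changed the sign of a ratio whose reported interval left out 0, and the cause was not tested. In 6 others the sign changed where that interval included 0. No paired analysis was possible because 1 animal was measured and there are no replicate numbers. Ratios below are log2 ratios of summed CPM, replication before mitosis unless named. At most 10% mitochondrial UMIs left all 16 values within their intervals. With 1 fewer gene the programme shares were 1.55% and 1.78%, with 1 more gene the mitosis share was 0.374%, at equal depth they were 0.495% and 0.260%, and without the 3 genes with the most UMIs the mitosis share was 0.374%. With no filter on cells, *FOXP3* gave 0.24 and 2.102, CD4hiCD8hi over CD4hiCD8lo 0.92 and 1.62, and the mitosis ratios were -0.89 for CD4loCD8hi over CD4hiCD8hi, -1.45 for *CCR7* and 1.31 for *CXCR5*. In thinned cells *GZMB* gave 1.18 and 1.56 and *CCR7* -0.64 and -1.01. Without the 6% of cells with the highest doublet scores, *GZMB* gave 1.58 and 1.98 and CD4hiCD8hi over CD4hiCD8lo 0.93 and 1.36. With T cells only, *GZMB* gave 1.47 and 1.97 and the *CXCR5* mitosis ratio was 0.37. With at least 2 UMIs for a positive cell, *CCR7* gave -0.76 and -1.18 and *CXCR5* 0.34 and 0.94. As a mean over cells, CD4hiCD8hi over CD4hiCD8lo gave 0.62 and 1.002 and *CCR7* -0.61 and -1.21, the replication ratios were 1.15 for *GZMB* and -0.15 for *FOXP3*, and the mitosis ratio was 0.96 for *CXCR5*. Without the 3 genes with the most UMIs of each list, CD4hiCD8hi over CD4hiCD8lo gave 1.37 and 1.71, CD4loCD8hi over CD4hiCD8lo 1.43 and 1.32, *GZMB* 2.09 and 2.54, *CCR7* -1.61 and -2.31 and *FOXP3* -0.98 and -0.38, and the *CXCR5* mitosis ratio was -0.48. Without the 20 cells with the most UMIs of each list, CD4hiCD8hi over CD4hiCD8lo gave 0.53 and 0.54, CD4loCD8hi over CD4hiCD8lo 0.49 and 0.10, *GZMB* 0.88 and 0.80, *CCR7* -0.43 and -0.78, *FOXP3* -0.040 and 0.46 and *CXCR5* 0.37 and 1.36. Without the programme cells, an alternative chosen after seeing the data, CD4hiCD8hi over CD4hiCD8lo gave 0.24 and 0.33, CD4loCD8hi over CD4hiCD8lo 0.035 and 0.017, *GZMB* 0.43 and 0.57, *CCR7* -0.24 and -0.57 and *FOXP3* 0.10 and 0.53, and the *CXCR5* mitosis ratio was 1.34. With tag thresholds raised 1.5 times the mitosis ratio was 1.35 for CD4hiCD8hi over CD4hiCD8lo, CD4loCD8hi over CD4hiCD8hi gave -0.28 and -0.85, and the replication ratio was 0.60 for CD4loCD8hi over CD4hiCD8lo. With thresholds lowered 1.5 times CD4hiCD8hi over CD4hiCD8lo gave 0.68 and 1.04 and CD4loCD8hi over CD4hiCD8hi 0.22 and 0.23, and the mitosis ratio was 1.27 for CD4loCD8hi over CD4hiCD8lo. Most cells held at most 1 UMI of the lists, so depth limits which single cells can be called, and with 1 animal no value shows how other animals would differ.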
